A study of Mus musculus with 27 samples.

Results

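Transcripts of *Setdb1* cKO iMEFs treated with trichostatin A (TSA) were compared with those of the same cells after *Setdb1* deletion, using 4 of the 27 RNA-seq libraries of the series. The libraries were chosen by their labels alone. There were 2 libraries of TSA-treated cells and 2 libraries of cells labelled 4OHT day 6. iMEFs are immortalized mouse embryonic fibroblasts, and the cKO line carries conditional *Setdb1* alleles that are deleted when 4-hydroxytamoxifen (4OHT) is added. The cells were a recloned single-cell line, so that all libraries came from 1 genetic background and no second clone was measured. TSA was given at 150 nM for 24 h to cells in which *Setdb1* had not been deleted. The 4OHT cells had received 4OHT at day 0 and were harvested at day 6, without TSA. The same experiment held 2 untreated libraries, for which no vehicle is given in the labels, and 4 further libraries with a MEK inhibitor (PD, alone or after 4OHT) that served only to estimate the spread. A separate siRNA experiment held 2 libraries of 4OHT-treated cells with control siRNA (4OHT + siCtrl) and 2 libraries with control siRNA alone (siCtrl), harvested at the same day. TSA time and 4OHT time differ, so the comparison is between the treatments as given and not at a matched time.

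TSA blocks class I and II histone deacetylases, enzymes that remove acetyl groups from histone tails and that act inside co-repressor complexes such as Sin3 and NuRD. Setdb1 is a histone methyltransferase that places H3K9me3, a mark of silent chromatin, and it holds endogenous retroviruses (ERVs) such as VL30 silent in fibroblasts. Type I interferon (IFN), a secreted signal of viral defense, acts through a complex that holds Irf9 on the interferon-stimulated response element (ISRE) of its target promoters, and Irf7 amplifies the signal. The REST/CoREST complex recruits histone deacetylases to keep neuronal genes silent outside the nervous system.

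Promoters were taken from RefSeq (GRCm38.p6, 250 bases before to 50 after the start) for the genes with the most extreme differences. Among the 10 genes lowest in TSA against 4OHT, 7 had a promoter in the table, and 2 of these held the ISRE core, GAAA, any 2 bases and GAAA, on either strand. Both are shown, with the core in capitals (TTTC, 2 bases and TTTC where it lies on the reverse strand), because they are the promoters at this end that hold the core, while those of *Oasl2*, *Ifi44*, *Oasl1* and *Lgals3bp*, which differed more in RNA than *Ddx60*, hold none. *Ifit1* (chr19:34640639-34640938, + strand) held it at -104 and -85 from the start. *Ddx60* (chr8:61927837-61928136, + strand) held it at -53 and -19.
Ifit1: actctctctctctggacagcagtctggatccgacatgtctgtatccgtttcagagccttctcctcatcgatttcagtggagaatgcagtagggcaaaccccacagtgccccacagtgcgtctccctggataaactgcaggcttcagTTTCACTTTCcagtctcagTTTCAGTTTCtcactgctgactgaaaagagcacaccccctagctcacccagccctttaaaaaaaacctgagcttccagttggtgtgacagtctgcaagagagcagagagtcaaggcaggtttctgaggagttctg
Ddx60: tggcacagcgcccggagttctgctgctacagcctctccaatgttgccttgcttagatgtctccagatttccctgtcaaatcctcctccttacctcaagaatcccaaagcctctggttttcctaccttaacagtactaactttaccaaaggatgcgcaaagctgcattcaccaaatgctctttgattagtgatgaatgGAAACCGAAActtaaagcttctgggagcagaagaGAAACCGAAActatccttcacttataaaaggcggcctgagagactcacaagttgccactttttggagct

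Among the 10 genes highest in TSA, 5 had a promoter in the table, and 3 of these held the GC box, GGGCGG on either strand. The box was in 71.9% of all tested genes matched there, so it does not mark this end. The promoters of *Krtap1-5* and *Vat1l* held none. Those of the synaptic genes *Syp* (chrX:7638330-7638629, + strand, GC box at -67 and -49) and *Nrgn* (chr9:37552696-37552995, - strand, GC box at -43) are shown, with the box in capitals (CCGCCC where it lies on the reverse strand), beside the *Ifit1* and *Ddx60* promoters, which hold none.
Syp: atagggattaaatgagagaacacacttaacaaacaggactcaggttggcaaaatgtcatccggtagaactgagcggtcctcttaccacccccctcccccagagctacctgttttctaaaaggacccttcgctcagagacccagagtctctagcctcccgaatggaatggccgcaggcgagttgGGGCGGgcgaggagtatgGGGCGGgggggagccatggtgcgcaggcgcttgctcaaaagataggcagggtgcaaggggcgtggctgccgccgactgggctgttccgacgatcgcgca
Nrgn: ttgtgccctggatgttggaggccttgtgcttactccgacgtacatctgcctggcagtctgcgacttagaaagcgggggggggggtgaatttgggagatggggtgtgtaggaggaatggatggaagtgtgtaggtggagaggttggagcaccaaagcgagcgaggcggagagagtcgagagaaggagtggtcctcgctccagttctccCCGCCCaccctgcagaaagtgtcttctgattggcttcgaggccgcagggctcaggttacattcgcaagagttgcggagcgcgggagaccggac

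Over whole gene groups, a gene was counted when at least 1 of its promoters held the motif. The ISRE core was in 3.44% of all 32851 promoters of the table. By genes, it was in 3.99% of all 27025 in the table and in 3.51% of the 8586 tested ones matched there. It was in 2.73% of the genes higher in TSA (1868 of 2484 matched) and in 5.71% of those lower in TSA (1209 of 1580 matched). Of the IFN-induced genes described below, 37 had a promoter in the table and 14 of these (37.8%) held the core. The GC box was in 76.0% of genes higher in TSA, in 63.1% of those lower in TSA and in 71.9% of those tested. It was in 15 of the 37 IFN-induced genes (40.5%). The AP-1 site (TGANTCA) was in 6.53% and 6.86%, against 5.96% of those tested. The cAMP response element, an 8-letter palindrome of TGAC followed by GTCA, was in 3.53% and 3.31%, against 3.84%. A match of letters was taken as a description and not as a bound site.

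Sequencing depth, estimated from the deposited values, was 10.9 to 12.96 M fragments per library (M, mega) in the inhibitor experiment, and 13.9 to 15.8 M in that of the siRNA experiment. *Setdb1* (mm9 chr3:95127447-95161124, - strand) was measured at 8.76 and 10.1 FPKM (fragments per kilobase of transcript and per M fragments mapped) in untreated cells, at 9.56 and 9.0 in TSA, and at 5.30 in one 4OHT library, while it was listed at 0 in the other. A listed 0 may be a failed estimate of the quantification rather than absent RNA. This holds here and for *Hdac7*, *H2afy2*, *Orc6* and *Atf5* below, and whether their RNA was absent was not tested. FPKM covers the whole gene and not the deleted exons, and in the siRNA experiment it was 7.58 and 5.00 with 4OHT against 7.40 and 6.48 without, so this value does not check the deletion. The difference between TSA and 4OHT did not pass the test (adjusted p = 0.0640). Without the library listed at 0, *Setdb1* was 0.80 higher in TSA on the log2 scale (adjusted p = 0.0244). *Vim*, the intermediate filament of fibroblasts, was between 931 and 2202 FPKM in the 6 libraries. The 13 haematopoietic markers summed to 67.6 and 61.6 FPKM in TSA and to 4.49 and 4.58 in 4OHT. All but *Cd68*, a lysosomal membrane protein, were under 1 FPKM in all 6 libraries, and 4 were listed at 0. The 11 epithelial markers summed to 135 and 155 FPKM in TSA and to 49.97 and 19.3 in 4OHT, led by the keratin *Krt19*, and 5 of them were under 1 FPKM throughout. The 8 endothelial markers summed to 34.5 to 35.8 in TSA and 14.1 to 19.4 in 4OHT, with 6 under 1 FPKM throughout. Muscle and pluripotent markers summed to at most 5.99 FPKM in any library. The part of other cells in the results was not tested, and in bulk RNA fewer cells of a type and less RNA per cell cannot be told apart.

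Host genes differed widely between the treatments. Of 11299 genes tested, 2484 (22%) were higher and 1580 (14.0%) were lower in TSA than in 4OHT, at a Benjamini-Hochberg adjusted p under 0.05 in limma and a difference of at least 2-fold. This rule is meant wherever a gene is said below to be higher, lower, raised or reduced. The shares of 22% and 14.0% are the background for every count of a gene group in TSA against 4OHT. The median log2 difference over all tested genes was 0.12, and 774 of the called genes differed at least 8-fold. Both TSA libraries lay above both 4OHT libraries in 5113 genes (45.3%) and below them in 4123 (36.5%). The split depended on scaling. Under quantile normalization, which moved the median difference to -0.01, 2069 genes were higher and 2112 lower. Many of the called genes were near silent on one side. Of the 2484 higher genes, 947 were under 1 FPKM in both 4OHT libraries, and of the 1580 lower genes, 227 were under 1 FPKM in both TSA libraries. Among the 9804 genes that reached 1 FPKM in a library of both groups, 1537 were higher and 1353 lower.

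Set against untreated cells, which both contrasts share, TSA moved more genes than 4OHT did. TSA raised 2186 genes (19.3%) and reduced 1440 (12.7%), whereas 4OHT raised 551 (4.88%) and reduced 702 (6.21%). The median absolute log2 change over all tested genes was 0.69 with TSA and 0.37 with 4OHT. The number of genes with at least 1 FPKM was 10812 and 10842 in TSA, above 9837 and 9990 in 4OHT and 9946 and 9976 in untreated cells. Libraries of TSA-treated cells also listed 14738 and 14922 genes above 0, against 13369 and 13391 in 4OHT.

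**Figure D1:**
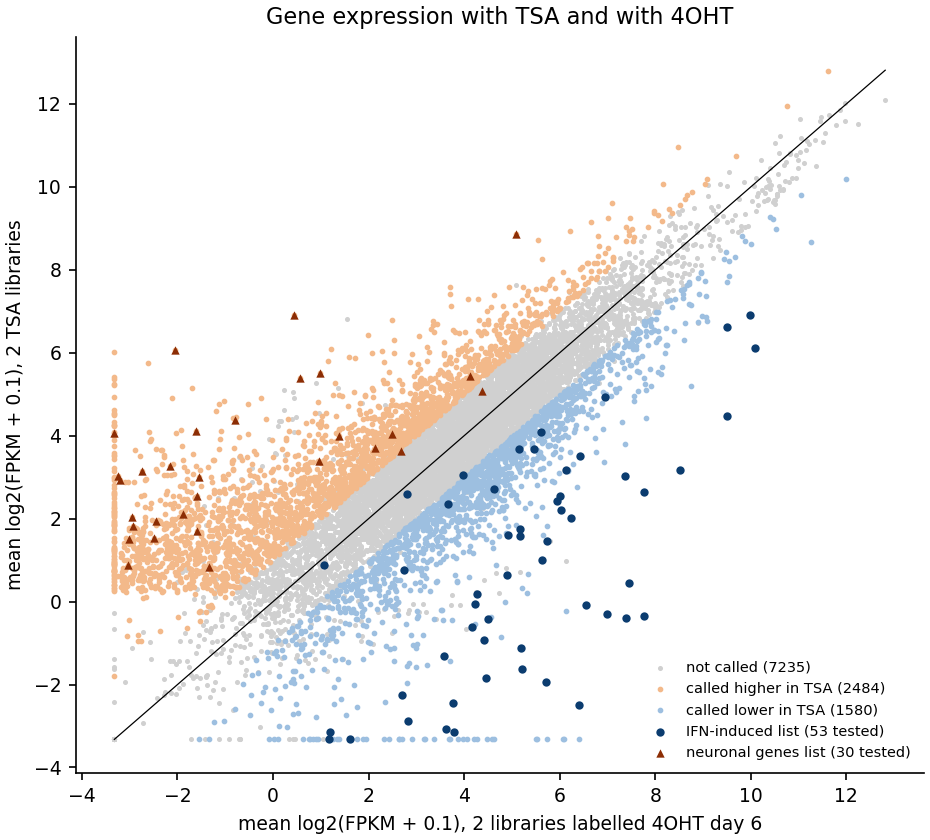
Mean log2(FPKM + 0.1) of the 2 TSA libraries (y axis) against that of the 2 4OHT libraries (x axis), 1 point per tested gene, with genes called higher (2484) or lower (1580) in TSA in colour, the 53 IFN-induced and 30 neuronal genes tested in dark symbols, and a line of equal levels. The IFN-induced genes lie under the line and the neuronal genes above it.

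IFN-induced genes were higher after *Setdb1* deletion than with TSA. Of 70 genes on the list, 14 were joined with a neighbouring gene in the deposited files and have no value of their own, 3 were under the filter on low values, and 53 were tested. None was higher and 48 were lower in TSA than in 4OHT, and the median log2 difference was -4.34 beside 0.12 for all genes. The filter on low values enters these counts and medians, here and against untreated cells. Of the 53 genes, 13 were under 1 FPKM in both untreated and both TSA libraries and passed only through other libraries. Among the 32 of these 53 genes that reached 1 FPKM in a library of both groups, 28 were lower. Against untreated cells the median was 4.50 with 4OHT, with 50 of 53 raised and none reduced. With TSA it was 0.18, with 9 raised and 11 reduced. Over all genes 4OHT raised 4.88% and reduced 6.21%, and TSA raised 19.3% and reduced 12.7%. The 4OHT libraries differed in size of the rise: the list's median over the untreated mean was 3.48 in replicate 1 and 5.65 in replicate 2, against 0.39 and 0.10 in the TSA libraries. The summed level of the list was 4446 and 9690 FPKM in 4OHT, 555 and 460 in TSA, and 607 and 619 in untreated cells.

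Effectors of the antiviral state were among the genes with the largest differences. *Zbp1* (mm9 chr2:173032113-173044424), a sensor of Z-form nucleic acids, was at 0.126 and 0.0407 FPKM in TSA and at 35.3 and 202 in 4OHT, a log2 difference of -8.89 ± 0.84 (SE; n = 2 libraries in each group here and below; adjusted p = 9.27e-05). Its untreated level was 1.38 and 2.11, so that TSA lay below and 4OHT above untreated cells. By their intervals the *Zbp1* values rest on 0.54 and 15.6 fragments in untreated cells and on 0.46 and 0.14 in TSA. Its place in TSA below untreated cells, and the size of its difference, are therefore uncertain. *Ifit1* (mm9 chr19:34715361-34724499), which binds viral RNA, was at 0.923 and 0.507 FPKM in TSA and at 150 and 315 in 4OHT (-8.11 ± 0.35, adjusted p = 5.16e-06). Untreated cells held it at 6.16 and 6.95, again between the treatments. *Lgals3bp*, a secreted glycoprotein, followed the same order, with 12.4 and 12.3 FPKM in untreated cells, 1.51 and 1.07 in TSA, and 109 and 277 in 4OHT (-6.99 ± 0.41, adjusted p = 1.55e-05). All 3 were reduced by TSA and raised by 4OHT against untreated cells.

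Other effectors did not differ between TSA and untreated cells by the rule used here. *Oasl2* (mm9 chr5:115346943-115362243), of the oligoadenylate synthetase family, was at 0.766 and 0.569 FPKM in TSA, 104 and 272 in 4OHT, and 1.40 and 1.46 in untreated cells (TSA against 4OHT, -7.79 ± 0.42, adjusted p = 1.20e-05). *Oasl1*, its paralog, was at 0.793 and 0.643 in TSA and 77.7 and 210 in 4OHT (-7.30 ± 0.63). *Ifi44*, an IFN-induced protein of unclear function, was at 0.188 and 0.134 in TSA and 26.6 and 102 in 4OHT (-7.65 ± 0.57). In each of these genes both 4OHT libraries lay far above both TSA libraries, and replicate 2 was the higher 4OHT library. For *Oasl2* the value of that replicate rests on 0.0011 fragments by its interval, so it is uncertain. *Mx2*, a dynamin-like antiviral GTPase, was at 0.425 and 0.0982 in TSA and 17.6 and 77.4 in 4OHT (-6.84 ± 0.71), with 0.0957 and 0.0352 in untreated cells. *Ddx60* (mm9 chr8:64406884-64516498), a helicase whose promoter is printed above, was at 0.0125 and 0.0250 in TSA and 6.80 and 21.7 in 4OHT (-6.69 ± 0.55). Its untreated level of 0.122 and 0.161 lay above both TSA libraries, on 9.59 and 11.9 fragments against 1 and 1.99. *Rtp4*, a chaperone of receptors, was at 0.954 and 0.743 in TSA and 68.3 and 127 in 4OHT (-6.63 ± 0.30).

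**Figure D2:**
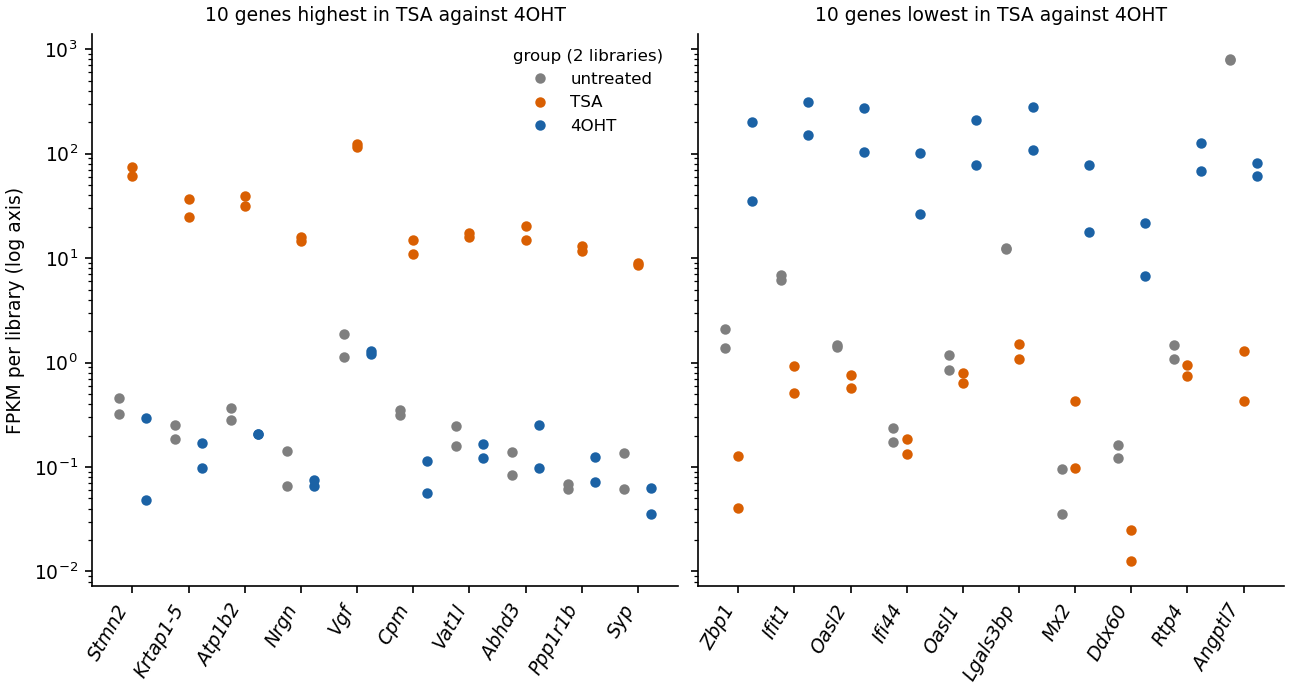
FPKM on a log axis in each of the 2 untreated, 2 TSA and 2 4OHT libraries, 1 point per library, for the 10 genes highest and the 10 lowest in TSA against 4OHT. The points of the TSA and 4OHT libraries do not overlap for any of the 20 genes, and for *Angptl7* both treatments lie below the untreated points.

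Of the 53 IFN-induced genes tested, TSA raised 9 and reduced 11, beside 19.3% and 12.7% of all genes. Among the 9 were *Irf7*, *Usp18* and *Cxcl10*, which TSA raised to lower levels than 4OHT did. *Irf7* (mm9 chr7:148448605-148452380), the amplifier of type I IFN, was at 1.59 and 1.23 FPKM in untreated cells, at 8.11 and 7.89 in TSA, and at 99.5 and 277 in 4OHT. It was raised by both treatments against untreated cells, by 2.44 ± 0.41 with TSA and by 6.79 ± 0.41 with 4OHT on the log2 scale, and it was 4.36 ± 0.41 lower in TSA than in 4OHT (log2 difference -4.36, adjusted p = 8.93e-05). *Usp18*, the protease that removes Isg15 and damps IFN signalling, was at 0.0452 and 0.299 in untreated cells, 3.49 and 4.45 in TSA, and 48.9 and 116 in 4OHT (TSA against 4OHT, -4.22 ± 0.53). The chemokine *Cxcl10* was raised by both treatments, from 11.1 and 10.3 FPKM to 84.1 and 115 in TSA and to 465 and 1131 in 4OHT (-2.88 ± 0.39 between the treatments). The chemokine *Ccl5* was at 12.8 and 6.30 FPKM in TSA and 187 and 720 in 4OHT (-5.33 ± 0.63), and its untreated level was 8.997 and 10.4.

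Immunoproteasome and peptide-loading genes, which prepare antigen for MHC class I, differed among themselves. *Psmb9*, a proteasome subunit, was at 5.09 and 6.83 FPKM in TSA and at 3.80 and 12.6 in 4OHT, both far above its untreated 0.237 and 0.261, and the groups overlapped (-0.23 ± 0.56, adjusted p = 0.744). Without 4OHT replicate 2 the sign turned (0.62, adjusted p = 0.286). *Psmb8*, its partner subunit, was at 6.62 and 4.21 in TSA and at 27.7 and 137 in 4OHT (-3.52 ± 0.78, adjusted p = 0.00573). *Tap1*, the peptide transporter, was at 2.97 and 2.89 in TSA and 19.05 and 47.5 in 4OHT (-3.32 ± 0.36). *Erap1*, the peptidase that trims peptides, was at 1.41 and 1.40 in TSA, under its untreated 9.20 and 9.40, and at 15.0 and 19.7 in 4OHT (-3.53 ± 0.29). On the whole list of 20 genes of MHC class I presentation, 11 were joined with a neighbour, and of the 9 tested 4 were lower and none higher in TSA (median -1.02).

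Upstream of the response, 20 genes of IFN signalling input (receptors, kinases and nucleic acid sensors) were all tested, and 5 were higher and 5 lower in TSA than in 4OHT (median -0.21, a sign that turned under some of the alternative settings). *Ifnb1*, the first IFN made by infected fibroblasts, was listed at 0 in both untreated and both TSA libraries. In 4OHT it was at 1.01 and 2.03 FPKM, on 8 and 14 fragments. It passed the filter on low values only through libraries other than untreated and TSA, so its test carries no weight for its direction. The DNA sensor cGAS (*Mb21d1*) was at 2.81 and 2.24 FPKM in TSA and 12.5 and 16.9 in 4OHT (-2.49 ± 0.21). Its adaptor Sting (*Tmem173*) was at 13.3 and 8.47 in TSA and 29.4 and 33.8 in 4OHT (-1.56 ± 0.24), both below the untreated 51.3 and 54.4. Both were reduced by TSA against untreated cells.

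**Figure D3:**
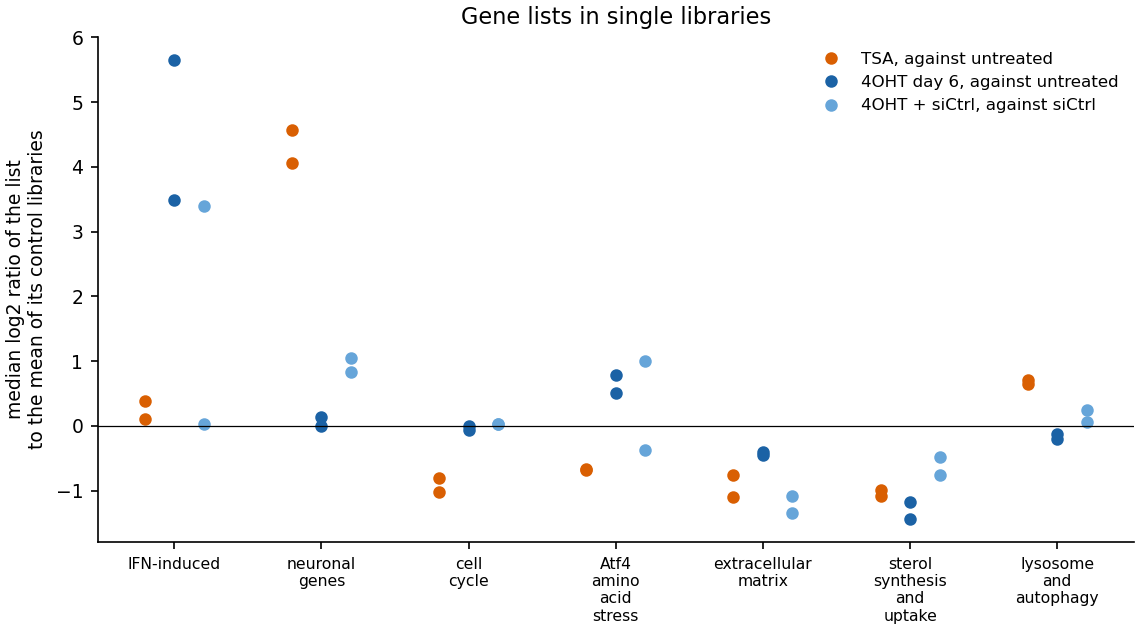
Median log2 ratio of a gene list to the mean of its control libraries (y axis), 1 point per library, for TSA and 4OHT against untreated cells and 4OHT + siCtrl against siCtrl, in 7 lists (x axis). The IFN-induced list lies at 0.39 and 0.10 in TSA, at 3.48 and 5.65 in 4OHT, and at 3.39 and 0.03 in 4OHT + siCtrl. The neuronal list lies at 4.05 and 4.57 in TSA, at 0.13 and 0.00 in 4OHT, and at 0.83 and 1.04 in 4OHT + siCtrl. The filter on low values sets the points of both lists in part. In the inhibitor experiment, 18 of the 30 neuronal genes were under 1 FPKM in untreated and 4OHT libraries. Of the 53 IFN-induced genes, 13 were so in untreated and TSA libraries.

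Neuronal genes were high with TSA, and with 4OHT the list lay near the untreated level. Of 53 genes on the list 30 passed the filter on low values, and of these 28 were higher and none lower in TSA than in 4OHT (median log2 difference 4.46). The filter itself enters this count, since 18 of the 30 were under 1 FPKM in both 4OHT and both untreated libraries and passed only because of their TSA level. Of the 12 that reached 1 FPKM in a library of both groups, 10 were higher. Against untreated cells the list's median was 4.05 and 4.57 in the TSA libraries and 0.13 and 0.00 in the 4OHT libraries. These medians and that of 4.46 include the 18 genes, so the filter sets them in part. In the siRNA experiment, 4OHT + siCtrl raised 5 of the 18 list members tested and reduced none, beside 2.61% and 3.49% of all genes. The list's median there was 0.83 and 1.04 in the single libraries. How far the filter enters those values was not tested.

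*Stmn2* (mm9 chr3:8509527-8561604), a microtubule regulator of growing axons, had the highest log2 difference of the named genes. It was at 61.1 and 74.2 FPKM in TSA, at 0.293 and 0.0480 in 4OHT, and at 0.458 and 0.321 in untreated cells (TSA against 4OHT, 8.13 ± 0.48, adjusted p = 1.61e-05). By their intervals the *Stmn2* values in TSA rest on 38.7 and 743 fragments, so that of replicate 1 is the less certain. *Vgf* (mm9 chr5:137506165-137509221), a precursor of secreted neuropeptides, was at 116 and 123 in TSA, 1.30 and 1.22 in 4OHT, and 1.12 and 1.86 in untreated cells (6.46 ± 0.41, adjusted p = 1.93e-05). Neither 4OHT library was above 1.30 FPKM for these genes. *Nrgn* (mm9 chr9:37352078-37360330), a calmodulin-binding protein of synapses, was at 15.8 and 14.5 in TSA and 0.0654 and 0.0751 in 4OHT (6.49 ± 0.41). *Syp* (mm9 chrX:7215597-7230382), the synaptic vesicle protein synaptophysin, was at 8.90 and 8.66 in TSA and 0.0623 and 0.0358 in 4OHT (5.90 ± 0.36). *Atp1b2*, a sodium pump subunit of neurons and glia, was at 31.9 and 39.3 in TSA and 0.206 and 0.207 in 4OHT (6.86 ± 0.27). *Ppp1r1b*, the dopamine-regulated phosphatase inhibitor Darpp-32, was at 13.2 and 11.8 in TSA and 0.125 and 0.0717 in 4OHT (6.00 ± 0.32).

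The other genes at this end were not neuronal as a group. *Krtap1-5* (mm9 chr11:99441291-99442330), a keratin-associated protein of hair, was at 24.7 and 36.6 FPKM in TSA and 0.171 and 0.0980 in 4OHT (7.03 ± 0.40). *Cpm*, a carboxypeptidase of the cell surface, was at 10.9 and 14.8 in TSA and 0.0568 and 0.114 in 4OHT (6.13 ± 0.27), and it was reduced by 4OHT against the untreated 0.354 and 0.312 (-1.24 ± 0.27, adjusted p = 0.0165). *Vat1l* was at 16.03 and 17.5 in TSA and 0.123 and 0.165 in 4OHT (6.12 ± 0.31). *Abhd3*, a phospholipase, was at 14.9 and 20.2 in TSA and 0.253 and 0.0970 in 4OHT (6.05 ± 0.51). Of the markers named above, the epithelial adhesion gene *Epcam* was at 28.1 and 29.2 in TSA and 0.650 and 0.220 in 4OHT (5.88 ± 0.43), and *Cd68* was at 66.95 and 60.5 in TSA and 3.96 and 4.30 in 4OHT (3.92 ± 0.48). *Krt19* was at 98.8 and 112 in TSA and 42.7 and 17.2 in 4OHT (1.95 ± 0.49, adjusted p = 0.00991), a call that was lost without TSA replicate 2 (adjusted p = 0.0522) or 4OHT replicate 2 (adjusted p = 0.0529). Germline genes, another group kept silent in somatic cells, mostly stayed under the filter: 3 of 39 were tested, of which 2 were higher in TSA.

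*Angptl7* (mm9 chr4:147869292-147874569), a secreted angiopoietin-like protein, stood apart from the other genes at the low end. It was at 798 and 809 FPKM in untreated cells, at 80.9 and 61.1 in 4OHT, and at 1.29 and 0.430 in TSA. It was thus reduced by both treatments, by -9.87 ± 0.38 on the log2 scale with TSA and by -3.51 ± 0.38 with 4OHT, and it was lower in TSA than in 4OHT by -6.36 ± 0.38 (adjusted p = 1.66e-05).

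**Figure D4:**
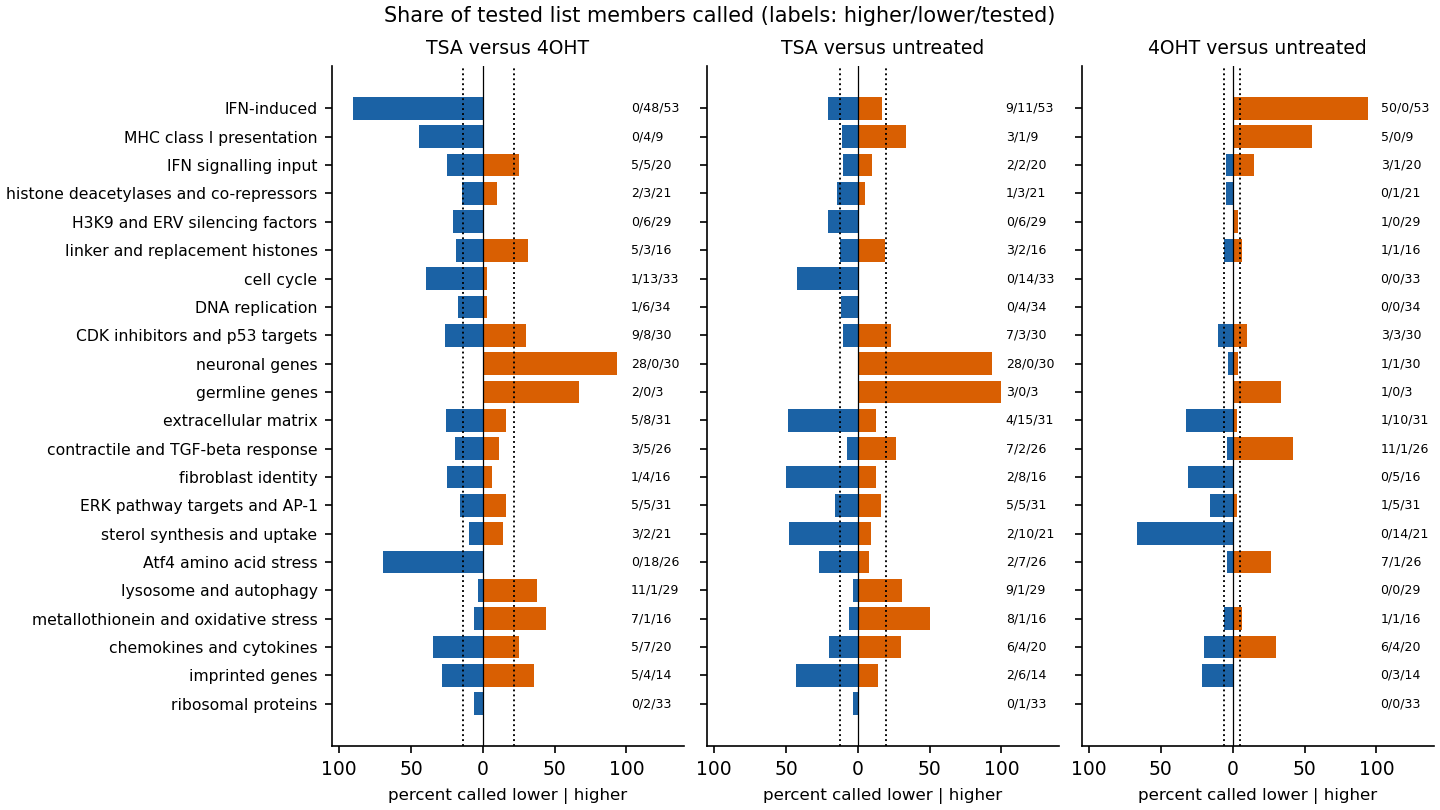
Percent of the tested genes of each list called lower (left of 0) or higher (right of 0) in TSA versus 4OHT, TSA versus untreated and 4OHT versus untreated, with numbers higher, lower and tested beside each bar and dotted lines at the percent called over all 11299 genes. In TSA versus 4OHT, the bar of the Atf4 targets (18 of 26 lower) holds 2 genes under 1 FPKM in both untreated and both TSA libraries. It is therefore not read against the dotted line of 14.0%. Of the 23 Atf4 targets that reached 1 FPKM in a library of both groups, 15 were lower. The bar of the IFN-induced genes (48 of 53 lower) holds 13 genes under 1 FPKM in both untreated and both TSA libraries. These passed the filter on low values only through other libraries, so that bar is not read against the line. Of the 32 IFN-induced genes that reached 1 FPKM in a library of both groups, 28 were lower. The bar of the neuronal genes (28 of 30 higher) holds 18 genes that passed the filter on low values only through their TSA level, so it is not read against the dotted line of 22%.

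The inhibitor's targets and their partners were called about as often as other genes or less. Of 21 histone deacetylase and co-repressor genes tested, 2 were higher and 3 lower in TSA (median -0.17), beside 22% and 14.0% of all genes. *Hdac1* was at 108 and 114 FPKM in TSA and 61.2 and 56.7 in 4OHT, a log2 difference of 0.91 ± 0.11 that was under the 2-fold limit (adjusted p = 0.000260). *Hdac11* was at 11.7 and 11.6 in TSA and 0.868 and 1.46 in 4OHT (3.26 ± 0.32, adjusted p = 0.000108). TSA raised and 4OHT reduced this gene against the untreated 2.81 and 3.37. *Mta1*, a NuRD subunit, was at 6.51 and 4.15 in TSA and 33.3 and 36.1 in 4OHT (-2.71 ± 0.19). *Ncor1*, a co-repressor scaffold, was at 14.7 and 12.2 in TSA and 31.5 and 42.5 in 4OHT (-1.44 ± 0.32). *Hdac7*, one of the 3 called lower, was listed at 0 in both TSA libraries and at 14.7 and 14.3 in 4OHT, and without genes so listed 2 of 20 were lower.

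Among 29 factors of H3K9 methylation and ERV silencing, none was higher and 6 were lower in TSA than in 4OHT (median -0.47). Over all genes 22% were higher and 14.0% lower. *Trim28*, the co-repressor that brings Setdb1 to KRAB zinc finger proteins, was at 89.5 and 90.8 FPKM in untreated cells, 32.9 and 28.4 in TSA, and 125 and 123 in 4OHT (-2.01 ± 0.11, adjusted p = 1.06e-05). TSA reduced it against untreated cells (-1.55 ± 0.11), and the difference between 4OHT and untreated cells was under 2-fold (0.46 ± 0.11, adjusted p = 0.0193). *Cbx5*, the H3K9me3 reader HP1α, was at 14.9 and 12.3 in TSA and 34.9 and 35.4 in 4OHT (-1.37 ± 0.13), and *Kdm4a*, a demethylase of this mark, was at 8.597 and 7.90 in TSA and 19.9 and 23.6 in 4OHT (-1.39 ± 0.12). *Atf7ip*, the partner that stabilizes Setdb1, was at 12 and 10.8 in TSA and 25.0 and 35.9 in 4OHT (-1.39 ± 0.23). *Daxx*, a histone chaperone that IFN also induces, was at 18.2 and 16.1 in TSA, at the untreated level of 15.6 and 17.4, and at 47.5 and 79.2 in 4OHT (-1.84 ± 0.21). *Zfp809*, the zinc finger protein that recognizes the proline primer binding site of retroviruses, was at 5.89 and 4.13 in TSA and 10.1 and 13.1 in 4OHT (-1.20 ± 0.41, adjusted p = 0.0336), a call that was lost without any one of the 4 libraries (adjusted p = 0.0502 to 0.164). *Dnmt1*, the maintenance DNA methyltransferase, did not pass the test, at 64.2 and 59.8 in TSA and 75.2 and 74.1 in 4OHT (-0.27 ± 0.10, adjusted p = 0.0510).

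Of 16 linker and replacement histones, 5 were higher and 3 lower in TSA (median -0.41), beside 22% and 14.0% of all genes. *H2afy2*, one of the 3, was at 2.96 FPKM in one TSA library and listed at 0 in the other. It was at 28.3 and 25.8 in 4OHT (log2 difference -5.62), so the size of its difference is uncertain. *H1f0*, the linker histone that accumulates in non-dividing cells, was at 213 and 169 FPKM in TSA and 48.7 and 50.1 in 4OHT (1.94 ± 0.12, adjusted p = 1.85e-05). Untreated cells held 149 and 153, so the difference lay mainly in a reduction by 4OHT (-1.61 ± 0.12) and less in TSA (0.33 ± 0.12, under 2-fold). *H2afj*, a replacement H2A, was at 18.0 and 23.4 in TSA and 9.28 and 6.69 in 4OHT (1.37 ± 0.20).

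Of 33 cell cycle genes tested, 13 were lower, 1 was higher and 19 were not called in TSA against 4OHT (median -0.91, beside 14.0% of all genes called lower), and all 33 reached 1 FPKM in both groups. Against untreated cells, TSA reduced 14 and raised none (median -0.87) and 4OHT called none in either direction (median -0.01). Of all genes, TSA reduced 12.7% and raised 19.3%, and 4OHT reduced 6.21% and raised 4.88%. *Ccnd1*, the G1 cyclin D1, was at 10.5 and 7.49 FPKM in TSA and 84.2 and 61.5 in 4OHT (-3.01 ± 0.34, adjusted p = 0.000207). Its untreated level was 36.3 and 37.2, and both 4OHT libraries lay above it by a log2 difference of 0.97 that was not called. Its kinase *Cdk4* was at 173 and 119 in TSA and 475 and 388 in 4OHT (-1.58 ± 0.23). The mitotic genes *Cdc20*, an activator of the anaphase-promoting complex, and *Aurka*, a spindle kinase, were likewise lower in TSA. *Cdc20* was at 16.2 and 17.6 in TSA and 89.9 and 69.1 in 4OHT (-2.22 ± 0.17). *Aurka* was at 15.6 and 14.2 in TSA and 65.4 and 59.4 in 4OHT (-2.06 ± 0.13).

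Of 34 genes of DNA replication, 6 were lower and 1 was higher in TSA (median -0.43), a share of lower genes near the 14.0% of all genes. *Rrm1*, a subunit of ribonucleotide reductase, was at 29.7 and 20.7 FPKM in TSA and 109 and 93.2 in 4OHT (-2.02 ± 0.20), and *Tk1*, thymidine kinase, was at 29.9 and 25.2 in TSA and 88.8 and 64.2 in 4OHT (-1.45 ± 0.26). *Orc6*, a subunit of the origin recognition complex and one of the 6 called lower, was listed at 0 in both TSA libraries and at 91.8 and 77.1 in 4OHT, and without genes so listed 5 of 33 were lower. CDK inhibitors and p53 targets went both ways, with 9 higher and 8 lower of 30 tested, beside 22% and 14.0% of all genes. *Cdkn1a*, the CDK inhibitor p21 that TSA is known to induce, was raised by both treatments, from 23.2 and 22.98 FPKM to 63.3 and 71.9 in TSA and to 62.2 and 49.4 in 4OHT, and it did not differ between them by the test (0.28 ± 0.16, adjusted p = 0.151). *Trp53* itself was at 33.8 and 28.0 in TSA and 188 and 186 in 4OHT (-2.60 ± 0.13, adjusted p = 8.32e-06), with 120 and 124 in untreated cells.

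Genes of the amino acid stress response were lower with TSA. The targets of Atf4, its transcription factor, were lower in TSA in 18 of 26 tested genes and higher in none (median -1.26). Of these 26, 2 were under 1 FPKM in both untreated and both TSA libraries and passed the filter only through other libraries. Among the 23 that reached 1 FPKM in a library of both groups, 15 were lower, beside 1353 of all 9804 such genes. Against the untreated libraries that both contrasts share, TSA raised 2 and reduced 7 of the 26, and 4OHT raised 7 and reduced 1. Over all genes TSA raised 19.3% and reduced 12.7%, and 4OHT raised 4.88% and reduced 6.21%. *Slc3a2*, the heavy chain of amino acid transporters, was at 83.9 and 86.8 FPKM in untreated cells, 50.6 and 44.4 in TSA, and 166 and 232 in 4OHT (-2.04 ± 0.19, adjusted p = 9.03e-05). *Trib3*, a pseudokinase that feeds back on Atf4, was at 6.24 and 5.42 in TSA and 19.96 and 32.3 in 4OHT (-2.11 ± 0.22). *Nupr1*, a stress-induced chromatin protein, was at 8.15 and 6.77 in TSA and 38.6 and 84.7 in 4OHT (-2.93 ± 0.39). *Shmt2*, the mitochondrial serine hydroxymethyltransferase, was at 34.0 and 33.3 in TSA, 197 and 201 in 4OHT, and 138 and 146 in untreated cells (-2.56 ± 0.10), so that the larger step from untreated cells was with TSA. *Atf5*, one of the 18, was listed at 0 in both TSA libraries and at 47.99 and 93.2 in 4OHT.

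Genes of lysosomes and autophagy were the opposite case, with 11 of 29 higher and 1 lower in TSA (median 0.67), beside 22% and 14.0% of all genes. 4OHT called none of them against untreated cells, where it raised 4.88% and reduced 6.21% of all genes. *Map1lc3a*, a coat protein of autophagosomes, was at 152 and 142 FPKM in TSA and 51.7 and 39.0 in 4OHT (1.71 ± 0.19, adjusted p = 0.000196). The protease *Ctsl* was at 390 and 352 in TSA and 210 and 79.3 in 4OHT (1.52 ± 0.40, adjusted p = 0.0123), a call that was lost without TSA replicate 1 (adjusted p = 0.0577). *Gusb*, β-glucuronidase, was the gene called lower, at 7.92 and 9.54 in TSA and 40.7 and 31.5 in 4OHT (-2.03 ± 0.18). Of 16 metallothionein and oxidative stress genes, 7 were higher and 1 was lower in TSA (median 0.70), beside the same shares of all genes. *Mt2*, a metal-binding metallothionein, was at 229 and 159 in TSA and 30.4 and 30.5 in 4OHT (2.64 ± 0.31). *Srxn1*, sulfiredoxin, was at 88.5 and 137 in TSA and 20.99 and 18.6 in 4OHT (2.47 ± 0.21), and *Prdx1*, the peroxiredoxin it repairs, was at 1015 and 1143 in TSA and 329 and 249 in 4OHT (1.91 ± 0.20). Of 33 ribosomal protein genes, 2 were lower and none higher in TSA (median -0.54).

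Extracellular matrix genes were reduced by either treatment more often than raised. Of 31 extracellular matrix genes, 5 were higher and 8 lower in TSA than in 4OHT (median -0.36), beside 22% and 14.0% of all genes. Against untreated cells TSA raised 4 and reduced 15 of them, and 4OHT raised 1 and reduced 10. Over all genes TSA raised 19.3% and reduced 12.7%, and 4OHT raised 4.88% and reduced 6.21%. *Col5a2*, a fibrillar collagen, was at 274 and 274 FPKM in untreated cells, 52.7 and 33.3 in TSA, and 226 and 210 in 4OHT (-2.38 ± 0.21). *Serpinh1*, the collagen chaperone Hsp47, was at 118 and 96.6 in TSA and 516 and 441 in 4OHT (-2.16 ± 0.23). The small proteoglycan decorin (*Dcn*) was the reverse, at 23.1 and 16.8 in TSA, 1.10 and 2.09 in 4OHT, and 11.3 and 11.7 in untreated cells (3.61 ± 0.40, adjusted p = 0.000201). *Thbs2*, a matricellular thrombospondin, was raised by TSA to 116 and 90.6 from 14.5 and 15.9, and was at 8.67 and 11.7 in 4OHT (3.33 ± 0.47).

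Of 26 contractile and TGF-β response genes, 3 were higher and 5 lower in TSA, against 22% and 14.0% of all genes. Smooth muscle actin *Acta2* was at 36.2 and 21.1 FPKM in TSA, 110 and 127 in 4OHT, and 46.9 and 46.5 in untreated cells (-2.09 ± 0.23, adjusted p = 0.000202). *Tagln*, an actin-binding protein, was at 196 and 70.9 in TSA and 574 and 448 in 4OHT (-2.10 ± 0.43). *Cnn1*, calponin, went the other way, at 43.9 and 48.9 in TSA and 7.85 and 8.15 in 4OHT (2.52 ± 0.12), above the untreated 2.94 and 3.19 with both treatments. *Ltbp2*, which binds matrix fibrils, was at 0.690 and 0.856 in TSA and 13.5 and 9.39 in 4OHT (-3.71 ± 0.25). Of 16 fibroblast identity genes, 1 was higher and 4 were lower in TSA (median -0.36), beside the same shares of all genes. *Osr1*, a transcription factor of mesenchyme, was at 33.5 and 34.9 in untreated cells, 2.49 and 1.57 in TSA, and 13.3 and 15.0 in 4OHT (-2.77 ± 0.20). *Prrx1*, a homeobox gene of mesenchyme, was at 10.5 and 6.34 in TSA and 33.6 and 57.1 in 4OHT (-2.41 ± 0.36). The 1 gene called higher was *Thy1*, a surface glycoprotein, at 126 and 176 in TSA and 58.9 and 59.0 in 4OHT (1.34 ± 0.15).

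Genes of sterol synthesis and uptake were reduced more often than raised. Of 21 tested, 3 were higher and 2 lower in TSA than in 4OHT (median 0.29), and against the untreated libraries that both share TSA reduced 10, raised 2 and left 9 uncalled (median -1.04), and 4OHT reduced 14 and raised none (median -1.31). Over all genes TSA reduced 12.7% and 4OHT 6.21%. The 2 genes that TSA raised were *Dhcr7* and *Hsd17b7*. *Fdps*, farnesyl diphosphate synthase, fell from 231 and 234 FPKM to 98.2 and 93.4 in TSA and to 68.3 and 51.6 in 4OHT (0.69 ± 0.19 between the treatments, under 2-fold). *Dhcr7*, the last enzyme of cholesterol synthesis, went apart, at 30.4 and 39.0 in TSA and 6.5 and 6.34 in 4OHT around an untreated 18.3 and 15.8 (2.41 ± 0.19).

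Imprinted genes, expressed from 1 parental allele, gave 5 higher and 4 lower of 14 tested (median 0.58), beside 22% and 14.0% of all genes. *Mest* was at 80.1 and 76.4 FPKM in untreated cells, 18.5 and 18.1 in TSA, and 1.77 and 1.99 in 4OHT (3.22 ± 0.32, adjusted p = 0.000115), reduced by both treatments and more so by 4OHT. *Peg10*, a gene derived from a retrotransposon, was raised by TSA to 66.3 and 122 and reduced by 4OHT to 9.95 and 10.7 from 29.3 and 33.0 (3.11 ± 0.25). *Igf2*, the fetal growth factor, was at 64.4 and 58.6 in TSA and 30.1 and 25.9 in 4OHT (1.14 ± 0.31, adjusted p = 0.0147), a call that was lost without TSA replicate 1 (adjusted p = 0.0678) or 4OHT replicate 2 (adjusted p = 0.0683). Of 20 chemokines and cytokines, 5 were higher and 7 lower in TSA, beside the same shares of all genes. The neutrophil chemokine *Cxcl1* was at 65.6 and 95.5 in TSA and 5.30 and 6.15 in 4OHT (3.77 ± 0.29), and *Tslp*, an epithelial cytokine, was at 25.0 and 19.8 in TSA and 1.76 and 2.11 in 4OHT (3.46 ± 0.42). These 2 chemokine and cytokine genes were thus highest with TSA, where *Cxcl10* and *Ccl5* were highest with 4OHT. ERK pathway targets and AP-1 genes gave 5 higher and 5 lower of 31 (median 0.10).

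Both treatments were put side by side because both raised VL30 RNA, and VL30 class I (71 elements of the study's list) was at 0.473 and 0.453 FPKM of element in untreated cells, 13.9 and 23.6 in TSA, and 19.8 and 25.1 in 4OHT. The TSA mean was thus 40.5 times and the 4OHT mean 48.5 times the untreated mean. The treatments did not differ by the test (log2 difference -0.30 ± 0.30, adjusted p = 0.418), and the groups overlapped. Under the element measure planned at first, which loci of about 90 bases dominate, class I was higher in TSA (1.77, adjusted p = 0.000235). Element families are called by an adjusted p under 0.05 alone. Copies with a primer binding site for proline tRNA (PBS-pro, 22 elements) were at 2.10 and 3.66 FPKM in TSA and 9.53 and 14.8 in 4OHT, 4.22 times higher in 4OHT by the means (-2.06 ± 0.57, adjusted p = 0.0150). This call was lost without TSA replicate 1 (adjusted p = 0.120), without 4OHT replicate 2 (adjusted p = 0.0775) and with a pseudocount of 0.01 (adjusted p = 0.0710), and its sign turned under the measure planned at first (2.19, adjusted p = 0.0111). Copies without that site (49 elements) were at 28.1 and 47.3 in TSA and 32.1 and 37.4 in 4OHT (0.07 ± 0.28, adjusted p = 0.840), and were higher in TSA under the measure planned at first (1.26, adjusted p = 0.00823).

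The share of non-PBS-pro copies in class I RNA was 91.8% and 91.6% in TSA and 73.9% and 68.0% in 4OHT. In untreated cells, where class I RNA was low, it was 98.1% and 98.7%, so the share was under the untreated one with both treatments. A single non-PBS-pro copy made much of that share in TSA. This copy (mm9 chr2:75476167-75480919, + strand) overlapped no gene, and its nearest coding gene was *Hnrnpa3*, 16399 bases away. It was at 320 and 506 FPKM in TSA and 91.6 and 102 in 4OHT, and made 54.5% and 50.9% of class I RNA in TSA against 11.0% and 9.61% in 4OHT. Other non-PBS-pro copies went the other way. The copy with the most class I RNA in 4OHT (17.05% and 13.4%) lay on the reverse strand of chromosome 11. It was at 148 and 147.2 FPKM in 4OHT, 8.37 and 8.15 in untreated cells, and 0 in both TSA libraries. A 0 for an element means that no locus without a gene name lay mostly inside it. A longer locus, or one with a gene name, would also give 0, and whether RNA was absent was not tested. A copy on the forward strand of chromosome 2, distinct from that near *Hnrnpa3*, was at 3.41 and 8.48 in TSA and 86.0 and 105 in 4OHT. A PBS-pro copy (mm9 chr6:133669107-133673571, + strand), 126302 bases from its nearest coding gene *Kap*, was at 2.95 and 5.62 in TSA and 82.2 and 118 in 4OHT. Another PBS-pro copy (mm9 chr19:3083056-3087769, + strand) was at 3.71 and 6.95 in TSA and 38.2 and 68.8 in 4OHT. Of the 22 PBS-pro copies, none had both TSA libraries above both 4OHT libraries, 13 had them below, 5 overlapped and 4 were at 0 in all 4 libraries. Of the 49 others, 7 lay above, 11 below, 18 overlapped and 13 were at 0. These copies were named after their values were seen, and the authors placed each read with several hits at 1 position, so values of single copies are uncertain.

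Other families differed as well. VL30 class III (66 elements) was at 9.46 and 15.3 FPKM in TSA and 5.15 and 5.71 in 4OHT (1.14 ± 0.28, adjusted p = 0.00955), a call that was lost without TSA replicate 2 (adjusted p = 0.209) and with a pseudocount of 0.01 (adjusted p = 0.0524). Class IV (25 elements) was at 8.40 and 13.7 in TSA and 4.90 and 6.69 in 4OHT (0.89 ± 0.33, adjusted p = 0.0470), and this call was lost in 11 of the alternatives. RLTR4 (51 elements) was lower in TSA, at 0.0498 and 0.0232 against 0.320 and 0.470 in 4OHT and 0.650 and 0.680 in untreated cells (-1.85 ± 0.27, adjusted p = 0.000778). Against untreated cells its difference with 4OHT was not called (-0.65 ± 0.27, adjusted p = 0.127). The paper reports RLTR4 among the ERVs raised by *Setdb1* deletion in iMEFs, from reads counted over repeats in other libraries. The values here count only unnamed loci mostly inside an element. Such loci were found in 37 and 39 RLTR4 elements in untreated cells, 36 and 30 in 4OHT, and 6 and 4 in TSA. Why the results differ was not tested. MMERVK10C (167 elements) was near 0 in TSA and at 0.0483 and 0.135 in 4OHT (-0.89 ± 0.32, adjusted p = 0.0429), a call lost in 7 of the alternatives. Class II VL30 and IAPEz were near 0 in all libraries.

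**Figure D5:**
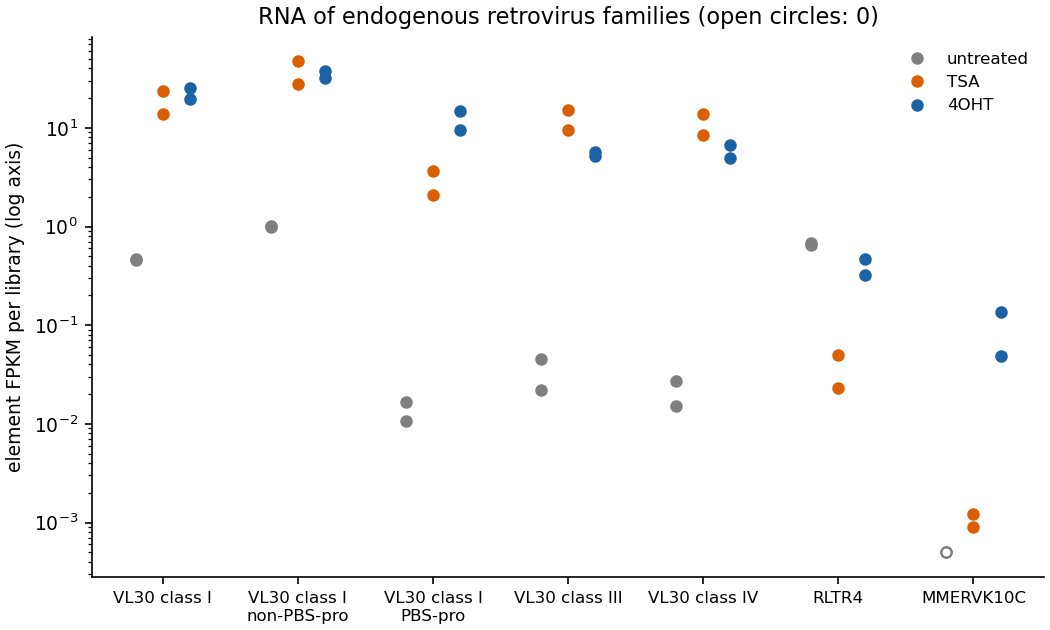
Element FPKM (y axis, log) in each untreated, TSA and 4OHT library, 1 point per library, for VL30 classes, RLTR4 and MMERVK10C (x axis), with open circles for libraries at 0. VL30 class I as a whole overlaps between TSA and 4OHT, while its PBS-pro copies lie lower in TSA (2.10 and 3.66) than in 4OHT (9.53 and 14.8).

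The TSA and 4OHT contrasts share their untreated libraries, so the siRNA experiment, which shares none, was used to ask how often a TSA change met a change by *Setdb1* deletion. In that experiment 276 genes (2.61% of 10562) were raised and 369 (3.49%) reduced in 4OHT + siCtrl against siCtrl. Its libraries differed in the IFN response. The IFN-induced list's median over the siCtrl mean was 3.39 in replicate 1 and 0.03 in replicate 2, and *Irf7* was at 279 and 14.6 FPKM in 4OHT + siCtrl against 21.1 and 21.5 in siCtrl. IFN-induced genes therefore rarely passed the test there (4 of 52 raised). In *Bmp3* and *Zfp37*, given below, replicate 2 of 4OHT + siCtrl lay with replicate 1 and apart from siCtrl, so that it went with its label in those genes and not in the IFN-induced ones.

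Of 10116 genes tested in both experiments, 1477 (14.6%) were raised and 1379 (13.6%) reduced by TSA, and 253 (2.5%) were raised and 354 (3.50%) reduced in 4OHT + siCtrl. Genes reduced by both numbered 133, which is 9.64% of those TSA reduced and 37.6% of those 4OHT + siCtrl reduced. Genes raised by both numbered 87 (5.89% and 34.4%). Opposite changes were fewer, with 48 genes raised by TSA and reduced in 4OHT + siCtrl (3.25% and 13.6%) and 21 reduced by TSA and raised in 4OHT + siCtrl (1.52% and 8.30%). These 4 counts moved over 1.5 times when libraries of the siRNA experiment were left out. Without siCtrl replicate 2 they were 31, 14, 1 and 4, and without siCtrl replicate 1 they were 40, 14, 3 and 4. Without 4OHT + siCtrl replicate 1, 170 genes were raised by both.

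Genes reduced in both experiments included *Bmp3*, a secreted member of the BMP family, which was at 11.3 and 10.5 FPKM in untreated cells, 0.538 and 0.463 in TSA, and 0.0353 and 0.0676 in 4OHT. In the siRNA experiment it was at 11.0 and 10.6 without and 0.0854 and 0.174 with 4OHT (-5.60, adjusted p = 0.00194). *Cxcl14*, a chemokine, was at 72.8 and 83.5 in untreated cells, 6.22 and 6.495 in TSA, and 5.88 and 2.67 in 4OHT, and *Mfap4*, a microfibril-associated protein, was at 4.66 and 5.07, 0.111 and 0.111, and 0.380 and 0.999. Of the genes raised in both, *Gsta4*, a glutathione transferase for lipid peroxidation products, was at 27.4 and 24.7 in untreated cells, 264 and 272 in TSA, and 151 and 213 in 4OHT, and its TSA and 4OHT levels did not differ by the test (0.58 ± 0.36, adjusted p = 0.193). Of the genes that moved in opposite directions, *Zfp37*, a KRAB zinc finger gene, was at 6.74 and 5.74 in untreated cells, 1.34 and 1.00 in TSA, and 36.2 and 37.4 in 4OHT (TSA against 4OHT, -4.87 ± 0.19, adjusted p = 2.55e-06). It was at 34.5 and 36.2 with and 6.35 and 5.48 without 4OHT in the siRNA experiment, where both libraries rose alike. *Esr1*, estrogen receptor α, was at 2.42 and 2.71 in untreated cells, 1.05 and 0.553 in TSA, and 9.71 and 13.7 in 4OHT (-3.75 ± 0.33). *Prl2c5*, a member of the prolactin family with near-identical copies that share reads, was at 1.30 and 0.829 in untreated cells, 0.227 and 0.322 in TSA, and 14.1 and 11.9 in 4OHT (-5.13 ± 0.33).

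The genes raised by TSA and reduced in 4OHT + siCtrl included 2 collagens, while on the extracellular matrix list TSA reduced 8 collagens against untreated cells (among them *Col1a1*, *Col3a1* and *Col6a1*) and raised only *Col8a1* and *Col11a1*. *Col11a1*, a cartilage collagen, was at 0.396 and 0.270 FPKM in untreated cells, 5.98 and 5.45 in TSA, and 0.208 and 0.0760 in 4OHT (4.64 ± 0.42), while in the siRNA experiment it was at 1.43 and 1.11 without and 0.0915 and 0.101 with 4OHT. *Col15a1*, a basement membrane collagen, was at 1.54 and 1.52 in TSA and 0.125 and 0.481 in 4OHT (2.17 ± 0.65, adjusted p = 0.0214), and its level in control cells was 0.0276 and 0.0304 in the inhibitor experiment but 2.00 and 2.18 in the siRNA experiment.

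Seen from the direct comparison, the 1747 genes higher in TSA than in 4OHT that were tested in the siRNA experiment had a median log2 change of -0.16 there, and 2.06% were raised and 8.87% reduced. The 1499 genes lower in TSA had a median of 0.21, and 5.4% were raised and 2.34% reduced. Over all 10116 genes the median was 0.07, and 2.5% were raised and 3.50% reduced. These medians are a description across genes, which are not independent replicates.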

How the data were processed

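RNA-seq libraries of *Setdb1* cKO iMEFs were aligned by the authors to mm9 with TopHat2 2.0.12, which reported 1 position for reads with several hits, and quantified with Cufflinks against RefSeq genes. The deposited FPKM, with their confidence intervals, were used, and depth was estimated from those intervals. Groups were taken from the labels. The header of 1 library with the MEK inhibitor PD names another group than its description, and the description was followed. Loci that share a symbol were summed. Loci joining several genes were left out of gene values. The authors' tables of their own comparisons (group FPKM, log2 fold changes, p-values) and the total RNA libraries were not used.

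Genes with at least 1 FPKM in at least 2 libraries were tested with limma 3.58.1 (R 4.3.3) on log2(FPKM + 0.1), which understates changes of low genes, with trended variances and two-sided p-values adjusted by Benjamini-Hochberg over all genes and element families. The 10 inhibitor libraries and the 8 siRNA libraries were fitted apart. Nothing says that the libraries of a group came from separate cultures, so p-values measure the spread between libraries, which may be technical. An exact permutation test of 2 against 2 cannot go below p = 0.333 and was not used. On simulated data of 11299 genes for TSA against 4OHT, 79 of 100 genes changed by 1.5 (log2) and 91 of 100 changed by 2.5 were recovered, with 4 other genes called. Fragments recovered from FPKM and its interval gave the element FPKM, because the measure planned first (FPKM times locus span) was dominated by short loci. Only loci without a gene name that lay mostly inside an element of the study's list were counted. An element with no such locus has a value of 0. Figures were drawn with matplotlib 3.10.9 in Python 3.11.15.

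Named genes were the 10 highest and 10 lowest by log2 difference among called, non-overlapping genes above 0 in all 6 libraries of untreated, TSA and 4OHT cells, the 5 with the largest smaller change of each class shared with the siRNA experiment, genes the study names, and members of each list with the largest differences or a textbook link to the treatment. Marker genes, *Hdac1*, *Psmb9*, *Dcn* and other list members outside this rule were chosen after their values were seen. The comparison, the gene lists and these rules were chosen with earlier results of these data known. A few genes that these rules name are not reported here.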

Additional observations from a re-analysis of the deposited data

How the results depend on the processing

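With groups of 2, leaving out 1 library leaves a lone library that is assumed to vary like the other groups, since limma pools the spread. The IFN-induced list's median kept its sign in every alternative run (-5.09 to -3.399), and -5.09 to -3.62 without single libraries. For TSA against 4OHT, a filter at 5 FPKM gave 1507 genes higher, no fold limit gave 3804 higher and 3013 lower, and quantile normalization 2069 and 2112. Without single libraries 1546 (without TSA replicate 2) to 2434 were higher and 1408 to 1594 lower. Replicate numbers were not shown to pair the samples (correlations of same-numbered deviations 0.017 to 0.038 among untreated, TSA and 4OHT, but 0.206 to 0.259 among 4OHT, PD and 4OHT with PD, and -0.025 to 0.017 for the other pairs of the inhibitor experiment), and with the replicate number as a block 2512 were higher and 1598 lower. Under the element measure planned first VL30 class I was 1.77 (log2) higher in TSA (adjusted p = 0.000235), its PBS-pro copies 2.19 (adjusted p = 0.0111) and the others 1.26 (adjusted p = 0.00823), so that class I and the PBS-pro copies changed sign. Class II was 2.39 higher (adjusted p = 0.000565). Loci of about 90 bases dominate that measure, and the measure used instead was chosen after seeing the data, as was leaving out genes listed at 0 in an assembled locus (2421 higher, 1550 lower). Without single libraries class I differed by -0.67 to 0.079.

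For TSA against untreated cells, 3467 genes were raised without a filter, 1267 with a filter at 5 FPKM, and 3561 raised and 2748 reduced with no fold limit. Without single libraries 1239 (without TSA replicate 2) to 2030 were raised and 1269 to 1477 reduced. For 4OHT against untreated cells, 356 were raised with a pseudocount of 1, and 1389 raised and 1436 reduced with no fold limit. Without single libraries 313 to 545 were raised and 347 to 562 reduced, lowest without untreated replicate 2. For 4OHT + siCtrl against siCtrl, 154 were raised with a pseudocount of 1, and 778 raised and 693 reduced with no fold limit. Without single libraries 37 to 544 were raised and 60 to 564 reduced, lowest without siCtrl replicate 2 and highest without 4OHT + siCtrl replicate 1.

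Genes raised by both TSA and 4OHT + siCtrl numbered 43 with a pseudocount of 1, 46 with a filter at 5 FPKM, 51 under quantile normalization and 247 with no fold limit (14 to 170 without single libraries). Genes raised by TSA and reduced in 4OHT + siCtrl numbered 26, 19 and 127 with that pseudocount, that filter and no fold limit (1 to 87). Genes reduced by TSA and raised in 4OHT + siCtrl numbered 9, 11 and 129 (4 to 49). Genes reduced by both numbered 301 with no fold limit (31 to 198). The cause of these changes was not tested. At 10.9 to 12.96 M fragments (M, mega) a library, genes near 0 FPKM rest on few fragments.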
